A study of Saccharomyces cerevisiae with 42 samples.

Results

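The autophagy-related (ATG) genes of budding yeast were followed in RNA sequencing of cultures in which sphingolipid synthesis was reduced with myriocin. Every gene of the deposited table whose NCBI Gene identifier carries an R64 symbol of ATG and a number was taken. This gave 37 genes of 6106 gene entries, and all 37 reached the mean of 1 TPM (transcripts per 1000000) required for testing. The cells were prototrophic BY4741, a MATa laboratory strain of Saccharomyces cerevisiae in which the plasmid pHLUM supplies the missing nutritional genes. A saturated culture was diluted into fresh synthetic complete medium with 700 ng/ml myriocin in 0.3% ethanol (Myr) or with 0.3% ethanol alone (vehicle). RNA was taken every hour between 0 h and 6 h, with 3 libraries for each of the 14 groups and 42 libraries in all. The 0 h cells are those of the saturated culture just put into fresh medium. Because a library is RNA of a whole culture, fewer cells expressing a gene and less RNA per cell cannot be told apart.

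Autophagy carries cytoplasm and organelles to the vacuole inside a double membrane, the autophagosome, which grows from a small precursor next to the vacuole. The Atg1 kinase and its scaffolds start the process, a phosphatidylinositol 3-kinase marks the membrane, Atg9 vesicles and the lipid-transfer protein Atg2 feed it, and ubiquitin-like conjugation attaches Atg8 to its lipids. Receptors tie chosen cargo to Atg8, and vacuolar enzymes then break the contents down for reuse. In yeast the pathway is known for its induction by starvation and by inhibition of the kinase complex TORC1, and several ATG genes are kept low in rich medium by transcriptional repressors. Myriocin inhibits serine palmitoyltransferase, the first enzyme of sphingolipid synthesis.

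The libraries had features that touch the values below. TPM sum to 1000000 in every library, so each value is a share of the transcripts, and sequencing depth is unknown. Genes with a coding length under 400 nt took between 39.1% and 54.2% of the TPM of a library. This share was 39.1% to 40.1% in Myr libraries at 5 h, against 44.4% to 50.9% in vehicle libraries. In 4 vehicle libraries, 3 h A and B, 4 h B and 5 h A, the transcript of the ribosomal protein gene RPL41A exceeded 70000 TPM. At 5 h the median log2 fold change of all genes, Myr over vehicle, was 0.31 as deposited, 0.0010 when libraries were centred on their median genes and 0.81 after scaling to the spike-in transcripts. Changes are therefore given beside that of all genes. The spike-in scaling takes 0 h of each treatment as its reference, so a difference in spike-in share at 0 h enters every later hour. Spike-ins made up 1.00% to 1.45% of TPM at 0 h in Myr libraries, against 0.76% to 1.06% in vehicle libraries. At 5 h they made up 0.42% to 0.48% in Myr and 0.42% to 0.49% in vehicle libraries. Of the a-type genes, MFA1, MFA2, STE2 and AGA2 were above the alpha-type genes STE3 and SAG1 in every library (MFA2 at 4347 to 15063 TPM, STE3 and SAG1 at or below 21.1 TPM). The a-type gene BAR1 was at or below the level of these alpha-type genes at 0 h, at 10.8 to 11.1 TPM in Myr and 7.27 to 9.95 TPM in vehicle libraries, and was at 20.1 to 122 TPM from 1 h on. The stationary-phase genes SPG1 and HSP26 were at 1738 to 1933 and 6430 to 7539 TPM at 0 h in Myr libraries, and at 1538 to 1920 and 5392 to 7452 TPM in vehicle libraries. At 1 to 6 h both stayed at or below 180 TPM in either treatment. At 0 h the meiosis gene IME1 was at 46.2 to 52.8 TPM in Myr libraries, against 16.3 to 24.7 TPM in vehicle libraries, at the start of the treatment. Of the other 5 meiosis genes IME2 ran the other way, at 6.87 to 7.93 TPM with Myr and 8.60 to 10.7 TPM in vehicle, and the groups of NDT80, SPO11, SPS1 and SPS2 overlapped.

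Windows of 300 bases before the start codon were searched on both strands for 4 short motifs of regulators linked to starvation or stress, and those of 5 genes are shown. ATG40, ATG8 and ATG29 had the largest differences between Myr and vehicle cultures at 5 h, ATG41 was the gene lower with Myr at 5 h and 6 h, and ATG42 was added, after its motifs and values were seen, as another gene with a URS1 core. The motifs were the URS1 core GCCGCC, bound by the repressor Ume6, the stress element AGGGG, bound by Msn2 and Msn4, the GATA element GATAAG, bound by Gln3 and Gat1, and the Gcn4 element TGACTC. Capitals mark a motif on either strand, so GGCGGC is the URS1 core, CTTATC the GATA element and GAGTCA the Gcn4 element on the other strand. The stretches run 5′ to 3′ on the strand of the gene, end 51 bases before the start codon and come from the R64 genome of RefSeq.
ATG8 (chrII:80782-81031, minus strand): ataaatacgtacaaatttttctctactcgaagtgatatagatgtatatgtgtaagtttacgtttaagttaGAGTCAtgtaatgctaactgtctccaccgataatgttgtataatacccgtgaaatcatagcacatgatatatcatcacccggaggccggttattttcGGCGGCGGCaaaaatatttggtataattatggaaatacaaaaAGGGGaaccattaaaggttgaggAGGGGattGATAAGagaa
ATG42 (chrII:515364-515613, plus strand): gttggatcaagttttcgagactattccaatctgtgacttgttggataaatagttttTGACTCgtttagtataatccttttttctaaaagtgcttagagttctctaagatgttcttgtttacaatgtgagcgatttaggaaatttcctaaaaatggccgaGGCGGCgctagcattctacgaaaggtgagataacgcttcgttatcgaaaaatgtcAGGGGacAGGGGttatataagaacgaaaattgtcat
ATG29 (chrXVI:237038-237287, plus strand): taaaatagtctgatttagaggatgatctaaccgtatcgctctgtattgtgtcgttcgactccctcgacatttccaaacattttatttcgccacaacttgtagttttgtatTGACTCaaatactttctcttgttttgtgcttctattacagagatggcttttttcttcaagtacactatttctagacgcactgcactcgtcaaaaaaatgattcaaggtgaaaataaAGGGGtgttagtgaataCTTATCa
ATG40 (chrXV:618339-618588, minus strand): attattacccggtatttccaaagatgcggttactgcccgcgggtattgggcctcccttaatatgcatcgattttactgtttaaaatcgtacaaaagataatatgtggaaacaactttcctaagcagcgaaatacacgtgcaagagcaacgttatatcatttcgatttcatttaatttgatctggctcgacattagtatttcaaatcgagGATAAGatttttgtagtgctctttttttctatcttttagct
ATG41 (chrXVI:74770-75019, minus strand): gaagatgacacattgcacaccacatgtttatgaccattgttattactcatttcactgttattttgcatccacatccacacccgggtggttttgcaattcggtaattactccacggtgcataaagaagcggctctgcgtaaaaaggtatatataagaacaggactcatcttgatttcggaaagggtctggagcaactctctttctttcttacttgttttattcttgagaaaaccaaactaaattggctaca
ATG8 was the only member whose window held all 4 motifs, and its pair of URS1 cores overlap each other. The ATG42 window held the URS1 core, the Gcn4 element and a pair of stress elements, that of ATG29 held all but the URS1 core, that of ATG40 a single GATA element, and that of ATG41 none. Over the 37 genes, the URS1 core was found in 3 windows (ATG8, ATG19 and ATG42), which is 8.11% against 5.22% of 5979 windows of the genome. The stress element was in 11 (29.7%, against 22.1%), the GATA element in 12 (32.4%, against 14.7%) and the Gcn4 element in 5 (13.5%, against 7.76%). No motif was found in 19 windows, and 11 of the 37 windows ran into another coding sequence, among them that of ATG29.

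The sharpest change of the ATG genes was their fall in the first hour after dilution. In Myr cultures 36 of the 37 genes were lower at 1 h than at 0 h and 1, ATG27, was higher, when 55.6% of all genes were called lower and 27.2% higher. In vehicle cultures 36 were lower and ATG27 was again the gene that was higher, against 52.6% lower and 29.3% higher over all genes. The median log2 change of the ATG genes was -2.59 in Myr cultures, where that of all genes was -0.48, and -2.52 in vehicle cultures, where that of all genes was -0.38. These calls are from limma on log2(TPM + 1) at an adjusted p under 0.05 over 5983 genes. With spike-in scaling 25 ATG genes were called lower in Myr cultures (14.3% of all genes), while ATG10, ATG12, ATG23 and ATG27 were called higher (68.2%). In vehicle cultures 29 were then lower (18.5%), with ATG12 and ATG27 higher (61.5%).

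The sum of the 37 genes shows the size of this fall. In Myr cultures it was 3829 ± 152 TPM at 0 h and 604 ± 29.3 TPM at 1 h, and in vehicle cultures 3967 ± 164 TPM at 0 h and 634 ± 30.2 TPM at 1 h (mean ± SD, n = 3 each). After that it climbed again, faster with Myr. From 2 h on, hour by hour, the sums were 649, 728, 760, 1092 and 1126 TPM in Myr cultures, against 688, 673, 733, 762 and 946 TPM in vehicle cultures. At 5 h the Myr libraries summed to between 1028 and 1130 TPM, all above the vehicle libraries at 748 to 783 TPM. Much of the sum came from ATG8, ATG41 and ATG44. Without them the libraries at 0 h summed to 1983 to 2133 TPM in Myr and 1955 to 2074 TPM in vehicle. At 2 h Myr was then no longer lower, at 421, 435 and 438 TPM against 424, 402 and 372 TPM in vehicle. At 5 h the groups stayed apart, at 773 to 829 TPM with Myr and 481 to 502 TPM in vehicle.

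**Figure D1:**
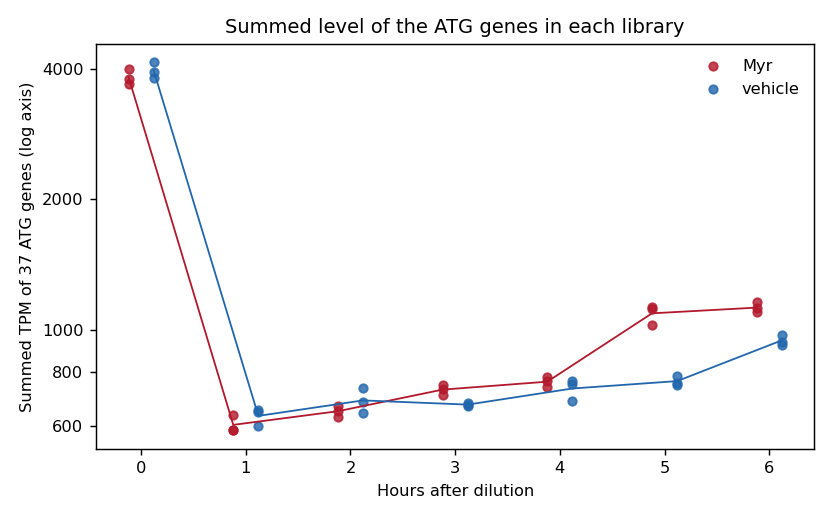
Summed level of the 37 ATG genes in TPM (log axis) against hours after dilution, 1 point for each library, with Myr and vehicle libraries in separate colours and lines through the means of 3. The sum drops steeply within the first hour in both treatments, and at 5 h all Myr libraries lie above all vehicle libraries.

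ATG39, the receptor for the nuclear envelope and the endoplasmic reticulum around it, fell the most. At 1 h it was at 2.98, 3.46 and 2.33 TPM in Myr libraries, where at 0 h it was at 249, 232 and 241 TPM. In vehicle libraries it was at 2.58, 2.25 and 2.84 TPM at 1 h and at 243, 294 and 210 TPM at 0 h. Its log2 change was -5.95 (SE 0.21) in Myr and -6.12 (SE 0.21) in vehicle cultures. ATG8, whose product is the ubiquitin-like protein that is tied to membrane lipids, came next. It was at 37.7, 30.1 and 28.8 TPM at 1 h in Myr libraries, where 0 h gave 577, 556 and 663 TPM, a log2 change of -4.18 (SE 0.13). In vehicle libraries it was at 25.4, 23.6 and 28.5 TPM at 1 h and at 688, 663 and 609 TPM at 0 h, a log2 change of -4.61 (SE 0.13). The exception, ATG27, encodes a membrane protein that travels with Atg9. It was at 65.5, 67.6 and 59.4 TPM at 1 h, above 51.6, 54.6 and 59.3 TPM at 0 h, in Myr libraries (log2 change 0.21, SE 0.07, adjusted p 0.0075 by limma). In vehicle libraries it was at 66.9, 69.2 and 70.6 TPM at 1 h and at 54.5, 51.6 and 50.5 TPM at 0 h. ATG39 and ATG27 were singled out after their values were seen.

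The fall itself differed between treatments for 3 genes, taken as the signed log2 change in Myr minus that in vehicle cultures. Of all genes 2.42% had a more positive change with Myr and 3.81% a more negative one. ATG40, the receptor for the cortical and cytoplasmic endoplasmic reticulum, fell less with Myr (difference of log2 changes 0.74, SE 0.17, adjusted p 0.0047 by limma). Its groups were apart at 0 h already, at 61.8 to 71.1 TPM with Myr and 78.9 to 81.7 TPM in vehicle. That 0 h difference was called only after median centring, as lower with Myr. At 1 h ATG40 averaged 22.5 TPM with Myr and 16.1 TPM in vehicle. ATG5 and ATG12, whose products are joined to each other, had a more negative change with Myr, by -0.40 (SE 0.11) and -0.48 (SE 0.15). For these genes too the groups differed at 0 h, by 0.33 for ATG5 and 0.26 for ATG12 on the log2 scale, against -0.07 and -0.22 at 1 h. ATG5 averaged 61.4 TPM with Myr and 48.5 TPM in vehicle at 0 h, and 21.3 and 22.4 TPM at 1 h, where the groups overlapped. ATG12 averaged 96.6 TPM with Myr and 80.7 TPM in vehicle at 0 h, and 43.8 and 51.3 TPM at 1 h (n = 3 each). With median centring neither ATG5 nor ATG12 passed, and with spike-in scaling none of the 3 did. Centring gave a more positive change with Myr for ATG8, ATG33, ATG34, ATG36, ATG40 and ATG42 (10.7% of all genes), and a more negative one for none (7.29%).

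Before 5 h, in the values as deposited, 1 to 14 of the 37 ATG genes were called higher at each hour, most at 3 h. At 0 h only ATG5 was called higher in Myr libraries (log2 fold change 0.33, SE 0.08) and none was lower, against 8.26% of genes higher and 3.63% lower. At 1 h ATG40 and ATG33 were higher and none was lower, against 2.42% and 3.01%. At 2 h ATG8, ATG27 and ATG40 were higher and ATG44 and ATG45 lower, against 16.0% and 2.49%. At 3 h 14 were higher and none lower, against 39.4% and 2.62%, so the share of ATG genes, 37.8%, was that of genes in general. At 4 h ATG5, ATG8, ATG20, ATG27 and ATG40 were higher and none lower, against 6.12% and 0.953%. Before adjustment, p under 0.05 by limma was reached in the lower direction by 1 gene at 0 h, 3 at 1 h, 1 at 3 h and 1 at 4 h.

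These early counts moved with single libraries and with the scaling. At 3 h the count was 4 without the vehicle library A, the vehicle library B or the Myr library B, 5 without the Myr library A, and 2 after median centring (4.88% of all genes). At 2 h it was 9 without the vehicle library 4 h B, which enters only through the shared spread, and 1 without the vehicle library 2 h D. At 4 h it was 2 without the vehicle library B, 3 without the Myr library A and 11 without the vehicle library D. Median centring gave 0 higher and 5 lower at 2 h (9.68% and 9.16% of all genes) and 1 higher and 3 lower at 0 h (13.1% and 13.7%). Spike-in scaling gave 35 higher at 2 h, 37 at 3 h and 32 at 4 h, with 94.6%, 94.8% and 90.8% of all genes. Every Myr library lay above every vehicle library for 15 ATG genes at 2 h (53.4% of all genes) and for 18 at 3 h (42.6%).

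ATG40 was the exception, called higher at every hour from 1 to 6 h, or at all of these but 2 h after median centring. At 4 h it was at 24.0, 18.9 and 23.1 TPM in Myr libraries, against 9.65, 9.18 and 9.20 TPM in vehicle libraries. The groups did not overlap, and the log2 fold change was 1.15 (SE 0.12, adjusted p 8.8e-08 by limma).

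**Figure D2:**
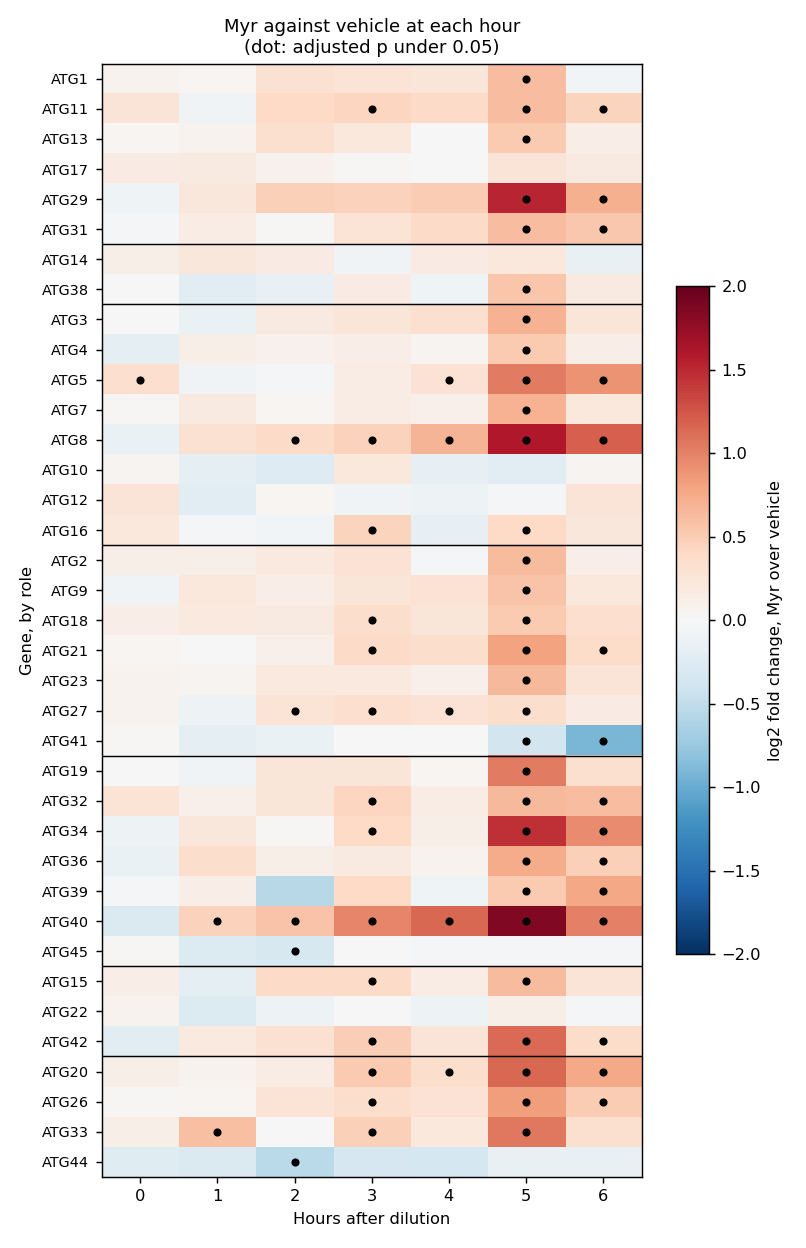
Log2 fold change, Myr over vehicle, of each of the 37 ATG genes (grouped by role, down the page) at each hour after dilution (across), with red for higher and blue for lower and a dot where limma's adjusted p was under 0.05. Dots are scattered before 5 h, except for the unbroken line of ATG40 from 1 to 6 h, and fill most of the column at 5 h, where 29 genes were higher and 1 lower.

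At 5 h most of the ATG genes stood higher with Myr. Of the 37, 29 were higher (78.4%) and 1 lower, when 52.2% of all genes were higher and 3.99% lower, and the median log2 fold change was 0.62 against 0.31 for all genes. Centring on the median left 24 ATG genes higher and 4 lower (ATG10, ATG12, ATG41 and ATG45), against 23.2% higher and 21.3% lower over all genes. In 28 genes every Myr library lay above every vehicle library and in 1 below, where 64.7% and 5.01% of all genes did so. At 6 h 14 were higher and 1 lower, against 19.6% and 3.43%, with a median of 0.26 against 0.15. Spike-in scaling gave 34 higher and 0 lower at 5 h, where 87.7% of all genes were higher and 0.618% lower. Correcting for coding length with a smooth trend gave 21 higher and 5 lower, against 19.8% and 28% of all genes. That correction also centres each library, with a median of -0.04 for all genes at 5 h, so its counts are not those of coding length alone.

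**Figure D3:**
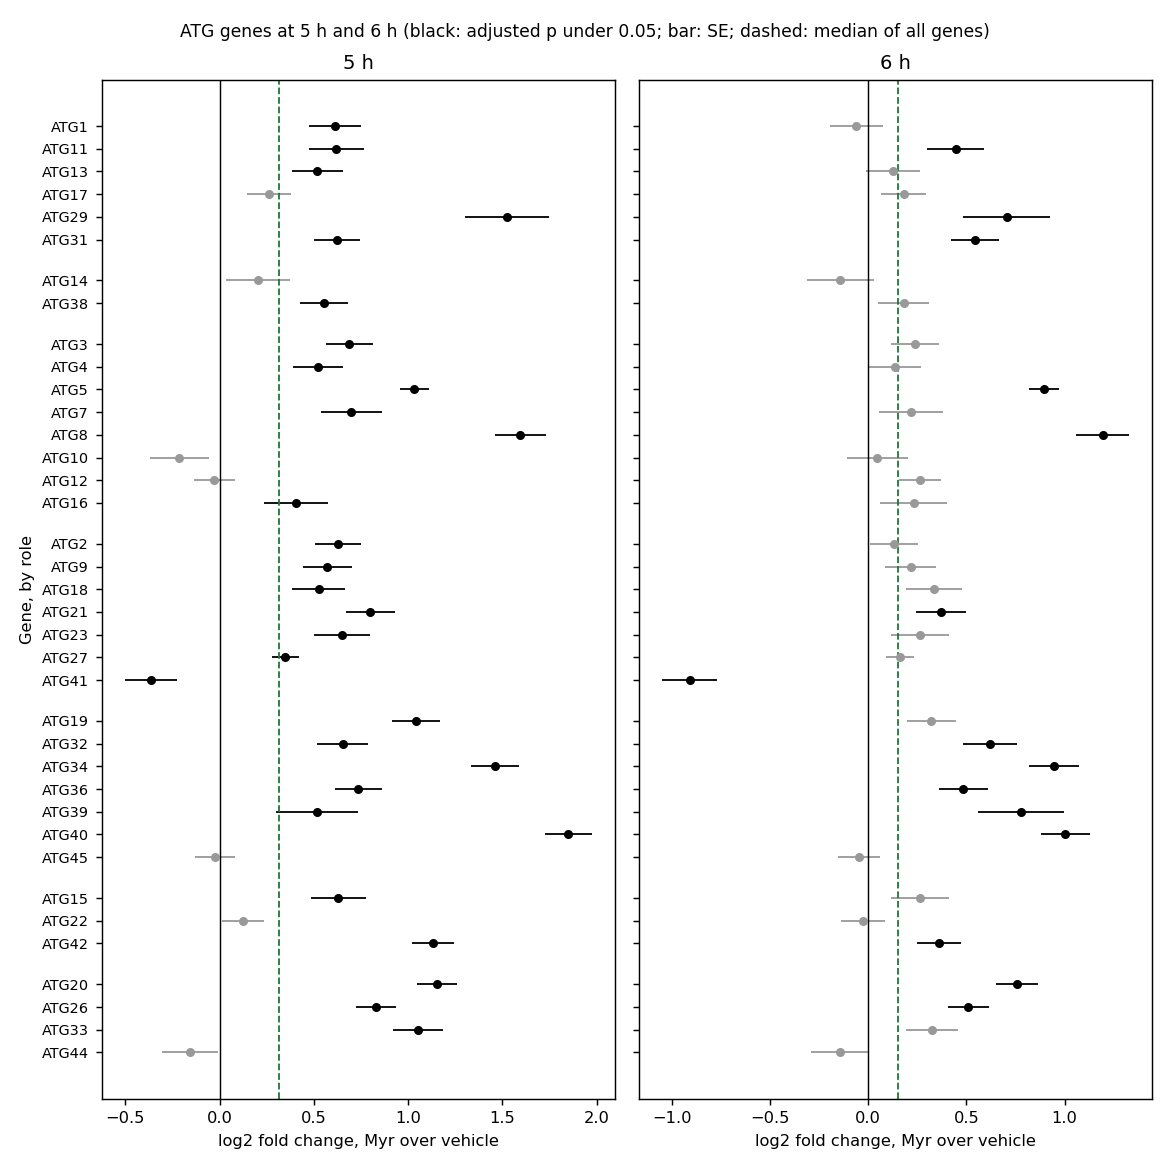
Log2 fold change, Myr over vehicle, of each ATG gene at 5 h (left) and 6 h (right), with bars for the SE, black points for limma's adjusted p under 0.05 and a dashed line at the median of all genes (0.31 and 0.15). ATG40, ATG8, ATG29 and ATG34 lie farthest to the right at 5 h, and ATG41 farthest to the left at 6 h.

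In the kinase complex and its scaffolds, 5 of 6 genes were higher at 5 h (median 0.62, 0.30 above that of all genes) and 3 of 6 at 6 h. ATG29, a subunit of the scaffold with Atg17 and Atg31, lies at chrXVI:237338-237979 on the plus strand and overlaps the opposite-strand gene SET6 by 24 nt at its end. It was at 20.1, 25.1 and 18.8 TPM at 5 h in Myr libraries, against 6.43, 6.66 and 7.06 TPM in vehicle libraries. The groups were far apart, and the log2 fold change was 1.53 (SE 0.22, adjusted p 1.8e-06 by limma). At 6 h it was at 22.4, 16.5 and 18.3 TPM with Myr, against 7.63, 13.7 and 13.4 TPM in vehicle, a log2 fold change of 0.70 (SE 0.22) that no longer passed without the Myr library A or the vehicle library A. ATG1, the kinase itself, was at 7.23, 8.86 and 9.56 TPM at 5 h with Myr, against 4.53, 5.60 and 5.58 TPM in vehicle (log2 fold change 0.61, SE 0.14, adjusted p 0.00049). At 6 h its libraries overlapped, at 5.97, 5.30 and 6.67 TPM with Myr and at 5.92, 6.47 and 6.41 TPM in vehicle, so that the difference seen an hour before was not called (log2 fold change -0.06, SE 0.14, and 0.24 with spike-in scaling), although it was called lower once the length trend was removed (-0.21, adjusted p 0.049 by limma). ATG31 and ATG11, the scaffold of selective autophagy, kept a difference at both hours. ATG31 was at 22.4, 29.0 and 27.2 TPM at 5 h with Myr, against 13.6, 17.1 and 19.4 TPM in vehicle, with log2 fold changes of 0.62 at 5 h and 0.54 at 6 h (SE 0.12 each). ATG11 was at 8.52, 8.55 and 8.58 TPM, against 4.61, 5.14 and 5.97 TPM, with log2 fold changes of 0.62 at 5 h and 0.45 at 6 h (SE 0.15 each), and the one at 6 h was lost when any of 4 libraries was left out. ATG13, the regulatory subunit, was called at 5 h only (0.52), and ATG17 at neither hour (0.26 and 0.18).

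The phosphatidylinositol 3-kinase complex has 2 subunits with ATG names. ATG38, which links its parts, was at 45.0, 43.2 and 46.0 TPM at 5 h with Myr, against 36.5, 28.1 and 26.7 TPM in vehicle (log2 fold change 0.55, SE 0.13, adjusted p 0.00077 by limma), and was not called after median centring (0.23). ATG14, which directs the complex to autophagy, was not called at 5 h (0.20) or 6 h (-0.14, and 0.15 with spike-in scaling).

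In ubiquitin-like conjugation, 6 of 8 genes were higher at 5 h (median 0.60, 0.29 above all genes) and 2 of 8, ATG8 and ATG5, at 6 h. ATG8 (chrII:80378-80731, minus strand), with all 4 motifs in its window above, was at 72.0, 86.7 and 80.5 TPM at 5 h in Myr libraries, against 27.5, 28.3 and 21.6 TPM in vehicle libraries. The log2 fold change was 1.60 (SE 0.13, adjusted p 4.2e-11 by limma). At 6 h it was at 98.0, 104 and 93.4 TPM with Myr, against 35.9, 49.9 and 42.8 TPM in vehicle (log2 fold change 1.19, SE 0.13). Even the highest of these values was below the lowest at 0 h, 556 TPM. ATG5, to which Atg12 is attached, was at 59.9, 60.6 and 63.6 TPM at 5 h with Myr, against 29.4, 32.1 and 27.1 TPM in vehicle (log2 fold change 1.03, SE 0.08, adjusted p 2.5e-12). Its partner ATG12 showed no such difference, at 51.5, 48.2 and 40.0 TPM with Myr and at 50.5, 42.5 and 49.1 TPM in vehicle (log2 fold change -0.03, SE 0.11, and 0.46 with spike-in scaling). ATG7, the enzyme that activates both Atg8 and Atg12, was at 5.84, 7.34 and 6.77 TPM with Myr, against 2.98, 4.29 and 3.94 TPM in vehicle (log2 fold change 0.70, SE 0.16). ATG3, which passes Atg8 to its lipid, was at 18.0, 17.4 and 17.2 TPM, against 9.45, 11.7 and 10.4 TPM (log2 fold change 0.69, SE 0.12). ATG10, which passes Atg12 to Atg5, was not called at 5 h (-0.21, SE 0.16, and 0.26 with spike-in scaling). ATG4, the protease that trims Atg8, and ATG16, which binds the Atg12 and Atg5 conjugate, were higher at 5 h (0.52 and 0.41), not after median centring, and that of ATG16 was lost when any of 4 libraries at 5 h was left out. ATG12 and ATG10 were picked out after their values were seen.

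In lipid transfer and Atg9 vesicles, 6 of 7 genes were higher and 1 lower at 5 h (median 0.57, 0.26 above all genes). At 6 h ATG21 was higher and ATG41 lower. ATG2, which moves lipids into the growing membrane, was at 4.28, 4.83 and 5.20 TPM at 5 h with Myr, against 2.59, 2.79 and 2.81 TPM in vehicle (log2 fold change 0.63, SE 0.12, adjusted p 0.00012 by limma). ATG9, the scramblase that spreads lipids between the leaflets, was at 4.85, 5.37 and 5.30 TPM, against 3.14, 3.47 and 2.87 TPM (log2 fold change 0.57, SE 0.13). Neither was called at 6 h (0.13 and 0.22). The phosphoinositide-binding proteins Atg18 and Atg21 gave log2 fold changes of 0.53 and 0.80 at 5 h. ATG18 was at 19.5, 20.2 and 21.4 TPM with Myr, against 11.7, 15.0 and 15.1 TPM in vehicle, and ATG21 was at 19.5, 20.6 and 19.5 TPM, against 9.22, 13.0 and 11.1 TPM. ATG23, which helps Atg9 traffic, was at 10.8, 11.1 and 12.6 TPM, against 6.84, 7.59 and 6.45 TPM (0.65, SE 0.15). ATG27 was 0.35 higher (SE 0.07). It was not called after median centring (0.02), and was at -0.03 after the length trend was removed.

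ATG41 (chrXVI:74309-74719, minus strand), needed for the Atg9 supply, was the one ATG gene called lower at 5 h and at 6 h and was singled out after its values were seen. At 6 h it was at 48.9, 46.1 and 52.3 TPM in Myr libraries, against 90.9, 91.3 and 97.0 TPM in vehicle libraries, with a wide gap between the groups. The log2 fold change was -0.91 (SE 0.14, adjusted p 1e-05 by limma), and -0.59 with spike-in scaling. At 5 h it was at 40.8, 59.5 and 61.6 TPM, against 62.2, 66.1 and 78.3 TPM, or -0.36 on the log2 scale (SE 0.14, adjusted p 0.028), which became 0.13 with spike-in scaling and was lost without the Myr library A or the vehicle library C. At 0 h it was among the most abundant ATG transcripts, at 643, 710 and 783 TPM in Myr libraries and at 502, 590 and 1153 TPM in vehicle libraries, where it was below ATG8 in A and B.

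Of the cargo receptors, 6 of 7 were higher at 5 h (median 0.74, 0.42 above all genes) and 5 of 7 at 6 h (median 0.62, 0.47 above all genes). ATG40 (chrXV:617518-618288, minus strand) showed the largest difference of the 37 genes at 5 h, at 43.9, 46.8 and 46.8 TPM with Myr, against 10.6, 12.2 and 13.3 TPM in vehicle. The log2 fold change was 1.85 (SE 0.12, adjusted p 2.4e-13 by limma), and 1.00 (SE 0.12) at 6 h. ATG34, a receptor for alpha-mannosidase under starvation, was at 10.8, 10.7 and 9.10 TPM at 5 h with Myr, against 2.71, 2.96 and 3.57 TPM in vehicle (log2 fold change 1.46, SE 0.13, adjusted p 1e-10). At 6 h it was at 11.0, 11.8 and 11.9 TPM, against 5.93, 5.09 and 5.56 TPM (0.95, SE 0.13). ATG19, its neighbour on chromosome XV and the receptor of the cytoplasm-to-vacuole targeting (Cvt) pathway, was at 29.2, 38.6 and 32.4 TPM at 5 h, against 13.2, 17.0 and 16.9 TPM (1.04, SE 0.13), and was not called at 6 h (0.32). ATG32, the receptor for mitochondria, differed at both hours. It was at 11.1, 11.9 and 11.3 TPM at 5 h with Myr, against 5.77, 7.67 and 7.47 TPM in vehicle (0.65, SE 0.14), and at 10.7, 11.9 and 13.8 TPM at 6 h, against 7.39, 7.28 and 7.90 TPM (0.62, SE 0.14). ATG36, the receptor for peroxisomes, was 0.74 and 0.48 higher at 5 h and 6 h. ATG39 was at 4.15, 8.88 and 6.84 TPM at 5 h, against 4.75, 4.25 and 3.51 TPM (0.52, SE 0.22, adjusted p 0.045), with overlapping groups, and the call was lost when any of 5 libraries was left out. At 6 h its groups were apart, at 9.86, 10.9 and 11.0 TPM with Myr and 5.27, 6.10 and 5.92 TPM in vehicle (0.78, SE 0.22). ATG45, picked out as the receptor called at neither hour, gave -0.03 at 5 h and -0.05 at 6 h, and 0.46 and 0.27 with spike-in scaling.

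Of the vacuolar genes, ATG42 and ATG15 were higher at 5 h. ATG42 (chrII:515664-517190, plus strand), a carboxypeptidase, was at 47.2, 57.4 and 55.5 TPM with Myr, against 23.4, 22.6 and 25.3 TPM in vehicle (log2 fold change 1.13, SE 0.11, adjusted p 1.3e-09 by limma). At 6 h it was at 61.8, 60.6 and 66.0 TPM, against 49.8, 47.8 and 48.2 TPM (0.36, SE 0.11), a smaller difference that was lost without the vehicle library B or the Myr library C and after median centring (0.22). ATG15, the lipase that opens the bodies released into the vacuole, was at 19.8, 25.1 and 23.6 TPM at 5 h, against 13.7, 14.3 and 15.0 TPM (0.63, SE 0.15), and was not called at 6 h (0.26). ATG22, an amino acid exporter, was called at neither hour (0.12 at 5 h, and -0.18 after median centring).

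In the remaining 4 genes, 3 were higher at 5 h (median 0.94). ATG20, a sorting nexin, was at 24.4, 24.2 and 26.0 TPM with Myr, against 11.3, 10.1 and 10.5 TPM in vehicle (log2 fold change 1.15, SE 0.11, adjusted p 3.9e-10 by limma), and at 26.2, 23.7 and 25.6 TPM at 6 h, against 12.8, 15.3 and 15.6 TPM (0.76, SE 0.11). ATG33, a mitochondrial protein of mitophagy, was at 55.7, 65.2 and 63.1 TPM at 5 h, against 25.3, 30.2 and 31.9 TPM (1.05, SE 0.13), and was not called at 6 h (0.32). ATG26, a sterol glucosyltransferase, was at 20.1, 20.1 and 20.4 TPM at 5 h, against 10.5, 11.2 and 11.1 TPM (0.83, SE 0.11), and 0.51 higher at 6 h. ATG44, the mitochondrial fission factor and with 222 nt the shortest member, was not called at 5 h, at 142, 155 and 165 TPM with Myr and 213, 152 and 156 TPM in vehicle (-0.15, SE 0.15, and 0.34 with spike-in scaling).

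**Figure D4:**
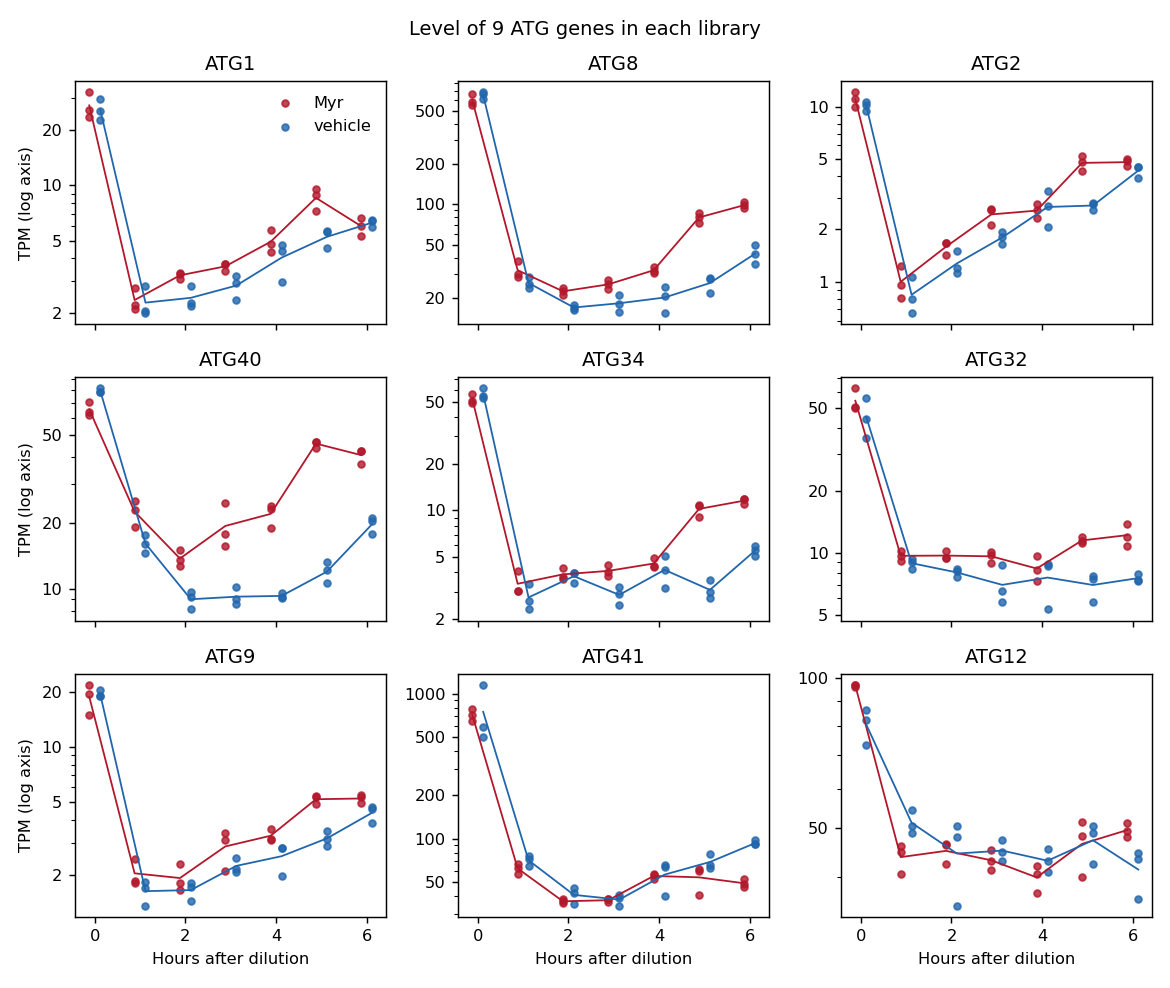
TPM (log axis) of 9 ATG genes in every library against hours after dilution, with Myr and vehicle libraries in separate colours and lines through the means of 3. ATG8, ATG40 and ATG34 are apart at 5 h and 6 h, ATG8 and ATG40 also at 1 to 4 h, ATG1 is apart at 5 h and overlaps at 6 h, ATG41 is lower with Myr at 6 h, and ATG12 overlaps at 5 h.

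The step from 4 h to 5 h belonged to the Myr cultures. There 28 of the 37 ATG genes were higher at 5 h than at 4 h and none was lower, against 31.6% of all genes higher and 4.76% lower, with a median log2 change of 0.57 where that of all genes was 0.18. In vehicle cultures 0 were higher and 0 lower, against 1.24% and 0.552%, and before adjustment 6 reached p under 0.05 by limma in the higher and 1 in the lower direction. After median centring ATG1, ATG7, ATG8 and ATG42 were higher and ATG34 lower in vehicle cultures (5.62% and 2.69% of all genes). The change differed between treatments, in the direction of a larger rise with Myr, for 13 ATG genes and in the other direction for none, against 11.4% and 0.685% of all genes. Of the step within Myr cultures and of this difference, 0 genes reached an unadjusted p under 0.05 by limma in the lower direction. The largest difference was that of ATG34 (1.34, SE 0.17, adjusted p 6.5e-07), which was at 4.36, 4.32 and 4.97 TPM at 4 h in Myr libraries and at 3.19, 5.08 and 4.17 TPM in vehicle libraries, overlapping groups that were far apart an hour later. ATG40 differed by 0.70 (SE 0.17) and ATG8 by 0.92 (SE 0.18). The count of 13 became 25 without the vehicle library 4 h B and 19 without the 4 vehicle libraries rich in RPL41A (27.9% of all genes). With spike-in scaling 6 ATG genes rose in Myr cultures after 4 h (ATG8, ATG19, ATG33, ATG34, ATG40 and ATG42) and ATG10 fell, against 3.43% and 5.72% of all genes. ATG34 alone then differed between treatments, against 1.25%.

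**Figure D5:**
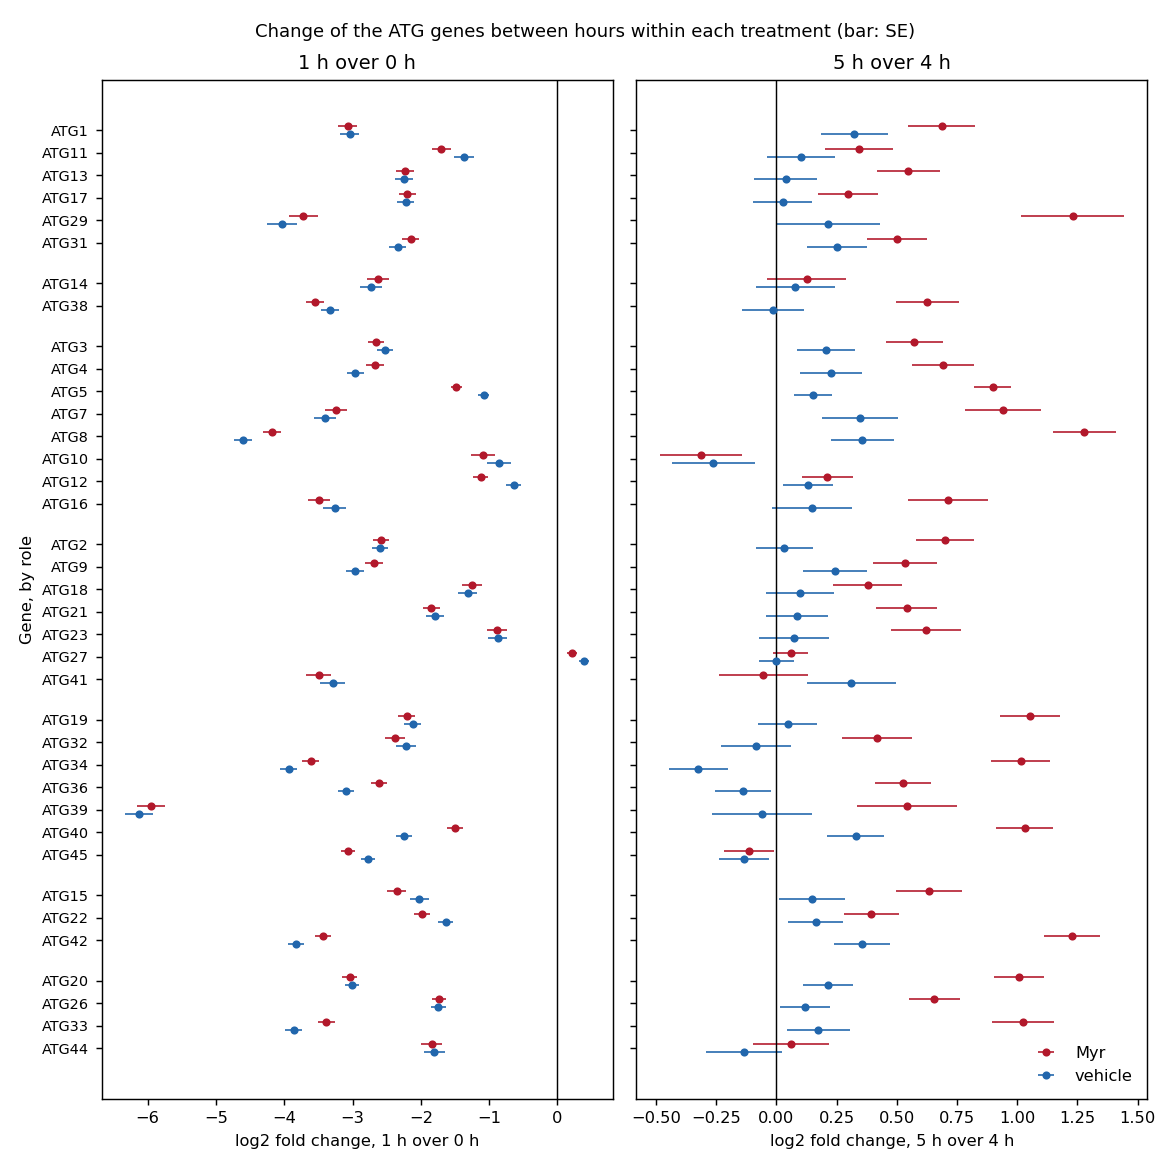
Log2 change of each ATG gene from 0 h to 1 h (left) and from 4 h to 5 h (right) within Myr and within vehicle cultures, with bars for the SE. In the first hour the treatments fall together, with ATG27 the one gene to the right of zero. After 4 h the Myr points lie to the right of the vehicle points for most genes. In that step 31.6% of all genes were called higher in Myr and 1.24% in vehicle cultures, so genes in general moved this way too.

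Over the whole course from 1 h to 6 h the ATG genes climbed in both treatments. In Myr cultures 31 were higher at 6 h and none lower, against 50.6% and 21.6% of all genes, and 0 reached an unadjusted p under 0.05 by limma in the lower direction. In vehicle cultures 29 were higher and ATG12 and ATG23 lower, against 43.3% and 26.3%. Centred on the median, 29 ATG genes climbed and 2 fell with Myr (38.5% and 39.3% of all genes), and 25 climbed and 5 fell in vehicle (38.3% and 39.3%). The signed change was more positive with Myr for 7 genes (ATG5, ATG8, ATG12, ATG20, ATG26, ATG34 and ATG40) and more negative for none, against 8.84% and 1.52%. In the negative direction 1 gene had an unadjusted p under 0.05 by limma. ATG12 and ATG5 did not climb in vehicle, where ATG5 averaged 22.4 TPM at 1 h and 21.5 TPM at 6 h. After median centring the change was more positive with Myr for 6 genes and more negative for ATG33 and ATG41 (8.31% and 5.30% of all genes). With Myr ATG41 fell, averaging 62.2 TPM at 1 h and 49.1 TPM at 6 h, against 70.8 and 93.1 TPM in vehicle.

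In terms of a design with time and drug over 1 to 6 h, at p of 0.01 or less, time was called for 35 of the 37 genes, against 86.5% of all genes. The drug was called for 26 in the higher direction, against 64.5%, and for 2 in the lower, ATG41 and ATG44, against 5.65%. The interaction of both was called for 17, against 22.6% of all genes. All 3 terms were called for 15 genes, against 17.2% of all genes, and none for ATG12. After median centring the drug was called for 17 in the higher and 6 in the lower direction, against 25.1% and 19.5%. Matched to 10 temporal shapes and their mirror images, at a correlation of at least 0.85 with the 6 hourly means, 17 ATG genes followed a steady rise in Myr cultures and 14 a step up after 4 h. Each gene was given only the shape it matched best. In vehicle cultures 19 followed the steady rise best, 4 a step up at 6 h only and 0 the step after 4 h. No shape was matched by 11 genes in vehicle, against 4 with Myr. ATG1, ATG4 and ATG9 in vehicle also reached 0.85 with the step after 4 h (0.89, 0.87 and 0.86). With Myr, genes such as ATG3 reached it with both the step after 4 h (0.97) and the rise (0.93). These matches are a description with no test, and were made for the ATG genes only, so no share over all genes stands beside them.

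Genes that work with the ATG proteins under other names were read from a list of 44. At 5 h 33 were higher with Myr (75.0%, against 52.2% of all genes) and 2 lower, with a median of 0.41 against 0.31. No median-centred values were taken for these genes, so a gene called higher at about 0.31, such as MON1, stood where genes in general did. At 6 h 9 were higher (20.5%, against 19.6% of all genes) and 1 lower. All 4 cargo genes of the Cvt pathway were higher at 5 h. AMS1, alpha-mannosidase, gave 1.75 (SE 0.10), APE1, an aminopeptidase, 1.73 (SE 0.12), APE4 0.89 (SE 0.13) and LAP3 0.53 (SE 0.11). The partners of the kinase, VPS34 (0.71), VPS30 (0.59) and VPS15 (0.37), were higher as well, and 3 of 4 genes of sorting and tethering, led by SNX4 (0.89), the sorting nexin that pairs with Atg20. Of 7 genes of fusion with the vacuole, VTI1 (0.91), CCZ1 (0.43) and MON1 (0.31) were higher and YPT7 (-0.38) and YKT6 (-0.35) lower. Of 11 transcriptional regulators linked to ATG genes 8 were higher, among them RPH1 (1.15, SE 0.13), a repressor of ATG genes, and GAT1 (0.64, SE 0.13), an activator, while UME6 was not called (0.14). Of 10 genes of TORC1 and its regulators 8 were higher, with NPR2, part of a TORC1 inhibitor, at 0.64, and of 5 other genes of selective autophagy 4 were higher, with CUE5, a receptor for ubiquitinated proteins, at 0.88. In the first hour 34 of the 44 were called lower in Myr cultures (55.6% of all genes) and 34 in vehicle cultures (52.6%).

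The promoter motifs can be set beside the 5 h values as a description. The 3 genes with the URS1 core, ATG8, ATG19 and ATG42, had a median log2 fold change of 1.13, against 0.62 for the 34 without. The median was 1.04 for the 11 genes with the stress element and 0.58 for the 26 without, 1.13 for the 5 with the Gcn4 element and 0.62 for the 32 without, and 0.64 for the 12 with the GATA element and 0.62 for the 25 without. The sets share genes, with ATG8 in all 4 and ATG42 in both the URS1 and the Gcn4 set, so these medians are not separate observations. ATG40, with the largest difference, held a single GATA element. ATG41, which was lower with Myr, was among the 19 genes with none of the 4, as were ATG5 and ATG11, which were higher.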

How the data were processed

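RNA of 42 libraries was sequenced from stranded TruSeq libraries with spike-in transcripts, mix 1 in vehicle and mix 2 in Myr samples. Per the study's methods and the submitters' processing notes, reads were trimmed with Trimmomatic 0.36 and quantified with Salmon 0.8.2 against R64 transcripts with 92 spike-ins. The deposited table holds TPM, which the authors' pipeline scaled to 1000000 per library, so depth is unknown and no count test was run. Columns carry treatment, hour and a letter, and were assigned to groups only (0 columns were left unused). The hours of a flask could not be joined, so errors over hours take libraries as independent. They may be too small, or for a change between hours too large. P-values measure the spread of libraries within their groups of 3, pooled over all groups of the fit.

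The 5983 genes that averaged 1 TPM or more in the 36 libraries after 0 h were tested on log2(TPM + 1) with limma 3.58.1 in R 4.3.3 (two-sided, variance trend, Benjamini-Hochberg adjusted p under 0.05 over all genes). Contrasts with 0 h or between hours used all 42 libraries. Spike-in scaling brought the spike-ins of each library to their level at 0 h of the same treatment, since the mixes differed. Fold changes are on that scale and understate those of low genes. The fit was tested on simulated data with known changes. Of 6106 gene entries, 6103 matched the R64 annotation by NCBI Gene identifier. Per-library values were given for ATG1, ATG8, ATG9, ATG2, ATG32 and up to 3 further genes of each role group with the largest difference at 5 h among those called. For others a reason is given. Alternatives were other pseudocounts, filters, scalings and designs, and leaving out each library. The members, role groups and lists were chosen with earlier results of these data known.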

Additional observations from a re-analysis of the deposited data

Results flagged for a closer look

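Where the change of an ATG gene between hours differed between Myr and vehicle cultures by limma's test of the difference (adjusted p under 0.05 over all genes), its value is given here as the log2 change in Myr minus that in vehicle. From 0 h to 1 h ATG40 differed by 0.74 (SE 0.17, adjusted p 0.0047), ATG5 by -0.40 (SE 0.11, adjusted p 0.024) and ATG12 by -0.48 (SE 0.15, adjusted p 0.044). From 4 h to 5 h ATG34 differed by 1.34 (SE 0.17, adjusted p 6.5e-07), ATG29 by 1.02, ATG19 by 1.01, ATG8 by 0.92, ATG42 by 0.87 and ATG33 by 0.85. In the same step ATG20 differed by 0.79, ATG5 by 0.75, ATG40 by 0.70, ATG2 by 0.67, ATG36 by 0.66, ATG38 by 0.64 and ATG26 by 0.54. From 1 h to 6 h ATG5 differed by 0.96 (SE 0.11, adjusted p 5.1e-08), ATG8 by 0.89, ATG34 by 0.73, ATG20 by 0.69, ATG40 by 0.55, ATG12 by 0.49 and ATG26 by 0.48. ATG5 and ATG12 thus stood out in opposite directions in the first hour and over the rest of the course, and both intervals share the libraries of 1 h. The groups hold 3 libraries each, so no library was tested for standing apart from its group.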

How the results depend on the processing

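No paired analysis was possible because the columns carry no replicate number, and their letter is not stated to mark a flask. With the letter as a random block (correlation 0.18) 5 ATG genes were higher at 2 h, and no other count named here moved by over 1.5 times. Of 377 values of comparisons under 13 settings, 318 kept within 1.5 times the count, or for a median within 1 SD between libraries, and 59 did not. With a pseudocount of 0.1 TPM the median of the lipid-transfer genes minus that of all genes was 0.37 at 5 h and 0.10 at 6 h. With a pseudocount of 10 TPM 2 genes were higher at 0 h, and medians minus that of all genes at 5 h were 0.098 for the kinase complex, 0.058 for conjugation, 0.10 for lipid transfer, 0.20 for receptors and 0.43 for the remaining genes, and at 6 h 0.059 for the kinase complex and 0.23 for receptors. A minimum mean of 10 TPM leaves fewer genes to test. It gave 18 higher at 5 h, 9 at 6 h, 22 lower in the first hour in each treatment, 17 higher from 4 h to 5 h with Myr, 19 (Myr) and 18 (vehicle) higher from 1 h to 6 h, 22 with a time effect and 16 with a drug effect in the higher direction. Its medians minus that of all genes were 0.14 for lipid transfer and 0.58 for vacuolar genes at 5 h, and 0.10 for lipid transfer and 0.26 for receptors at 6 h.

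Median centring gave 4 higher at 1 h (8.19% of all genes), 0 at 2 h (9.68%) and 2 at 3 h (4.88%). It gave 0 with a larger fall in the first hour with Myr (7.29%). In vehicle 4 were higher (5.62%) and 1 lower (2.69%) from 4 h to 5 h. A drug effect was called in 17 higher (25.1%) and 6 lower (19.5%). Spike-in scaling gave 0 higher at 0 h (0.435% of all genes), where each treatment is its own reference. It gave 35 at 2 h (94.6%), 37 at 3 h (94.8%), 32 at 4 h (90.8%) and 24 at 6 h (40.7%). With it 0 had a larger fall in the first hour with Myr (0.485%). From 4 h to 5 h 6 were higher with Myr (3.43%) and 1 differed between treatments (1.25%). From 1 h to 6 h 19 were higher in vehicle (22.2%) and 1 differed (1.72%). It gave 0 with a lower drug effect and 10 with an interaction. It also turned ATG12 (0.46), ATG41 (0.13) and ATG45 (0.46) to higher values at 5 h. Removing the length trend also centres each library. Without the length trend ATG22 (-0.26) and ATG27 (-0.034) turned lower at 5 h. Then 3 genes were higher at 3 h (3.83% of all genes) and 3 at 4 h (6.12%). In vehicle 3 were higher (5.38%) and 1 lower (3.58%) from 4 h to 5 h. The drug was then called for 16 higher and 6 lower. Each hour on its own gave 0 higher at 0 h, 1 at 1 h, 11 at 2 h, 4 at 3 h and 1 at 4 h, with fewer libraries behind each spread. Without the 4 vehicle libraries rich in RPL41A, 11 were higher at 2 h (43.9% of all genes), 2 at 3 h (1.34%) and 2 at 4 h (2.99%). A more positive change with Myr was then called for 19 from 4 h to 5 h (27.9%) and for 12 from 1 h to 6 h (14.1%). Where a count under a changed setting has no share beside it, that of all genes was not taken. Except where the construction shows it, the cause was not tested.

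With each of the 42 libraries left out in turn, 23 of 35 counts and medians kept within the same limits, among them the 6 h count (11 to 18), the interaction (13 to 24) and the median of the phosphatidylinositol 3-kinase genes minus that of all genes at 5 h, which changed sign (-0.020 to 0.19). The others ranged as follows. Higher genes numbered 1 to 2 at 0 h, 1 to 3 at 1 h, 1 to 9 at 2 h, 4 to 17 at 3 h and 2 to 11 at 4 h. Those with a larger fall in the first hour with Myr numbered 0 to 2 and those with a larger rise after 4 h 10 to 25. Those with a more positive change with Myr from 1 h to 6 h numbered 4 to 9 (4 without the vehicle library 1 h C or the Myr library 6 h C). From 4 h to 5 h in vehicle 0 to 1 were higher and 0 to 1 lower. The median minus that of all genes at 6 h ranged over -0.00080 to 0.097 for lipid transfer, lowest without the vehicle library 6 h B, and 0.39 to 0.57 for receptors. Among single genes at 5 h and 6 h, 7 calls were lost in at least 1 case, 6 were gained and 0 changed direction.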
